A study of Homo sapiens with 9 samples.

Results

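The transcripts of 10 genes of the interleukin 6 (IL-6) family and its surroundings were followed in HMEC-1, an established human line of dermal microvascular endothelial cells: the ligands IL6, LIF and IL11, the receptor chains IL6R, IL6ST, LIFR and OSMR, the feedback inhibitor SOCS3 and the cytokines IL15 and IL32. They were taken by symbol from the table of estimated read counts, and 10 of the 10 symbols were found among its 29740 genes and passed the expression filter. The cells had been exposed to 50 µM trimethylamine-N-oxide (TMAO), a metabolite formed from dietary choline and carnitine, for 24H or for 48H in low-serum medium, or had been left untreated (CTRL). Each of the 3 groups held 3 libraries, and control cells from the 2 times were treated as 1 group in the study, so that neither comparison with controls separates TMAO from time in culture. All libraries came from 1 cell line, and nothing in the labels says whether replicates were separate cultures, so the p-values measure the spread between these libraries, which may be technical.

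IL-6, leukaemia inhibitory factor (LIF) and IL-11 signal through a shared chain, gp130, encoded by IL6ST. Each ligand first engages a chain of its own (IL6R, LIFR or the IL-11 receptor), while oncostatin M uses OSMR, and gp130 then activates JAK kinases and the transcription factor STAT3, whose target SOCS3 shuts the signal off. Endothelial cells are known to carry abundant gp130, and a soluble form of the IL-6 receptor can supply IL-6 signalling to cells that make little of it. IL-15 signals through a different receptor system that uses JAK1, JAK3 and STAT5, and IL-32 is a cytokine known to be induced by tumour necrosis factor and interferon.

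Total counts ranged from 25205756 to 36927373 per library. Ribosomal RNA genes took 31.5% of the counts of TMAO 24H replicate 1 and 1.64% to 7.46% elsewhere. The 12 endothelial markers were all detected and tested, among them PECAM1, CDH5 and VWF, and of 6 leukocyte markers 2 were tested, CD68 (a mean of 599.5 normalised counts, that is counts scaled to the mean effective library size, in controls and 657 at 48H) and CD14 (34.0 and 34.5), while the others, PTPRC, CD3E and ITGAM among them, lay too low. The epithelial markers EPCAM, CDH1, KRT5 and KRT14 were also present. Their sum was 266 normalised counts in TMAO 48H replicate 3 and lay between 1692 and 3047 in the other 8 libraries. At 48H, 7 of the 12 endothelial markers were lower than in controls with an adjusted p under 0.05 and 0 higher. Beside this, 5.29% of all genes tested were lower and 5.14% higher. The sums of the endothelial markers were 75212 to 82719 normalised counts at 48H against 84524 to 96114 in controls. The sum of 7 fibroblast and mural markers was 14659.7 to 16079.6 at 48H and 21419 to 24501 in controls, and most of it was COL1A1, with means of 12929 and 20626. ACTA2 was 1.67-fold higher at 48H (adjusted p = 0.00194), PDGFRB (0.898-fold) and COL3A1 (0.889-fold) did not pass, and DCN and LUM were too low to be tested. The sum of the leukocyte markers was 665 to 712 at 48H and 589.9 to 677 in controls. Whether these markers have a part in the results for the cytokine genes was not tested.

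To place the genes that differed, 250 bases before the annotated start (RefSeq, GRCh38.p14) are shown for 3 of them in which letters of a factor of inflammatory signalling were found, 5′ to 3′ on the gene's strand. RefSeq windows were at hand for 8 of the 10 genes, all but IL15 and LIF. Capitals mark matches, on either strand, to GGG, any 2 bases and TTTCC, the core of an NF-kB site, in IL6 and IL32 and to TTCNNNGAA, the core of a STAT site, in LIFR.
IL6, chr7:22726950-22727199, plus strand: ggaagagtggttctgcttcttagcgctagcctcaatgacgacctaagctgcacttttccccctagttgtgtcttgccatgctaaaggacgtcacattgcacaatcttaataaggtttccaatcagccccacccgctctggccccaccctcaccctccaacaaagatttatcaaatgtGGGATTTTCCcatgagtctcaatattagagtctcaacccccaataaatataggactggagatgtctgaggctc
IL32, chr16:3065153-3065402, plus strand: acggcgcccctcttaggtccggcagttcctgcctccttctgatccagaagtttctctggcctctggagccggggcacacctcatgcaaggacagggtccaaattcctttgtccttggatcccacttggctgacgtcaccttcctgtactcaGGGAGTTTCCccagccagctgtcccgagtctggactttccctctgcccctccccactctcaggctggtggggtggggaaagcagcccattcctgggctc
LIFR, chr5:38595406-38595655, minus strand: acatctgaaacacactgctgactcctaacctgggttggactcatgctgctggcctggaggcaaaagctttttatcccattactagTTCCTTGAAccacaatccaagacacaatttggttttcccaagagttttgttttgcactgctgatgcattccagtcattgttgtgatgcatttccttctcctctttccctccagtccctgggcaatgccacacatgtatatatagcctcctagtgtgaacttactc

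The NF-kB letters lay at positions -73 to -64 from the start in IL6 and at -99 to -90 from the first of 2 starts listed for IL32. The window of the second IL32 start did not hold them. Of all 35116 promoter windows, which also hold 50 bases after the start, 1.91% contain them. The STAT letters lay at -165 to -157 from this start of LIFR, which is the first of 3 listed for the gene, and are contained in 7.66% of windows. The window of the second LIFR start also held STAT letters (TTCATCGAA, at -182 to -174), and that of the third did not. Both other motifs searched, TGANTCA (AP-1, in 7.71% of windows) and GAAA, any 2 bases and GAAA (an interferon response core, in 3.57%), were absent from the 3 stretches shown. The first was found in the windows of IL6R, IL11 and OSMR. The letters are a description of the sequence and were not linked to binding.

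Levels of different genes were compared as normalised counts per kilobase, with the median length of the protein-coding transcripts of GENCODE release 29 as the length of each gene. IL6ST, the shared gp130 chain, stood highest in controls at 6219 normalised counts per kilobase (6066 to 6315 over the 3 libraries). OSMR, the oncostatin M receptor, followed at 1238 (1122 to 1309). LIFR at 378 and IL6R at 324 came next and overlapped in their control libraries. IL32 stood at 211 normalised counts per kilobase and SOCS3 at 151, apart from each other and from their neighbours. The ligands were lowest, with IL6 at 96.1, IL11 at 77.2, IL15 at 56.6 and LIF at 54.2 normalised counts per kilobase, and each of these overlapped the next in the order. With the longest transcript as length, IL6ST (1768) and OSMR (389) remained at the head, IL32 (135) moved above LIFR (94.0), SOCS3 (85.3) and IL6R (65.2), and IL15 (14.1) came last. The receptor chains OSMR and IL6ST thus had more transcript per length than any of the ligands under both lengths.

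**Figure D1:**
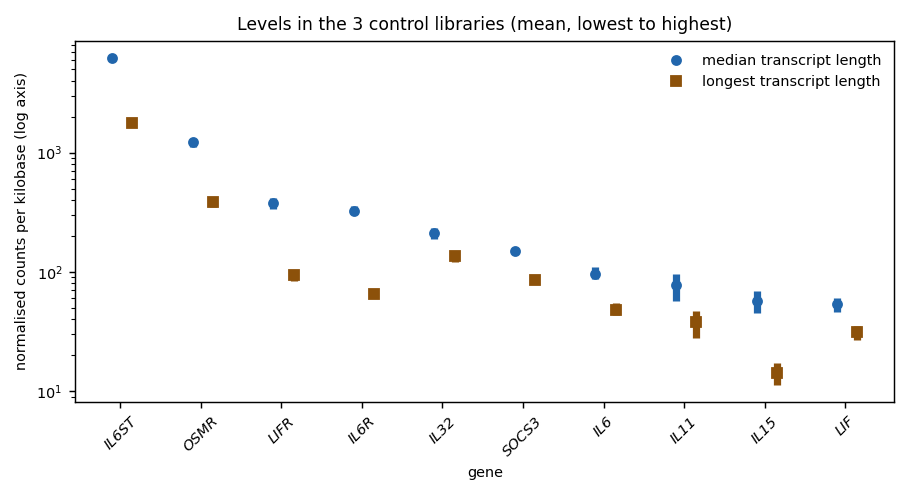
Normalised counts per kilobase (log axis) of the 10 genes in controls, with the median (circles) or the longest (squares) protein-coding transcript as length; points are means and bars span the lowest to the highest of the 3 libraries. IL6ST at 6219 and OSMR at 1238 stand above the other genes, and the ligands IL6, IL11, IL15 and LIF lie lowest with the median length.

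IL6, the ligand that gives the family its name, was lowest at 24H. It had 66.2, 70.7 and 83.6 normalised counts in the control libraries, 38.1, 39.9 and 48.3 at 24H, and 94.3, 66.9 and 111.6 at 48H. The libraries at 24H lay below those of both other groups, whereas TMAO 48H replicate 2 fell among the controls. Relative to controls, the level at 24H was 0.575-fold (95% interval 0.423 to 0.782) and did not pass over all genes (adjusted p = 0.336). The level at 48H was 1.23-fold (0.916 to 1.66, adjusted p = 0.367), an interval that includes no change, and without TMAO 48H replicate 3 the log2 fold change was 0.13 (adjusted p = 0.742) in place of 0.30. The step from 24H to 48H was 2.14-fold (1.58 to 2.91) and passed (adjusted p = 0.00494). It passed without each single library (adjusted p 0.00241 to 0.0308). Without TMAO 24H replicate 1 and TMAO 48H replicate 3 together it was 0.84 on the log2 scale and did not pass (adjusted p = 0.0704). In a bulk library, fewer cells that make IL6 and less transcript in each cell cannot be told apart.

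LIF, a ligand of the LIFR and gp130 pair, was highest at 48H. Its normalised counts were 106, 125 and 139 in controls, 91.9, 122 and 122 at 24H and 165, 166 and 159 at 48H. All libraries at 48H lay above all others, and those of controls and 24H overlapped. LIF was higher at 48H than at 24H by 1.45-fold (95% interval 1.17 to 1.80, adjusted p = 0.0359), while its level at 48H was 1.32-fold that of controls (1.07 to 1.63), which did not pass (adjusted p = 0.0904). At 24H, LIF stood at 0.909-fold of controls (0.734 to 1.13, adjusted p = 0.910). The log2 fold change between 48H and 24H was 0.54 and ranged from 0.42 to 0.61 without single libraries, and the call held in 2 of those 9 fits. It was lost without CTRL replicate 2 (adjusted p = 0.0541) and without TMAO 24H replicate 1 (0.130), replicate 2 (0.0582) or replicate 3 (0.0666). It was also lost without TMAO 48H replicate 1 (adjusted p = 0.0686), replicate 2 (0.112) or replicate 3 (0.0555).

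IL11, a gp130 ligand associated with fibrosis, varied more between control libraries than between groups. It had 87.6, 63.7 and 106.8 normalised counts in controls, 104, 78.0 and 112 at 24H and 79.2, 82.8 and 88.6 at 48H. The groups overlapped in every comparison. The fold against controls was 1.14 at 24H (95% interval 0.854 to 1.52, adjusted p = 0.910) and 0.971 at 48H (0.726 to 1.30, adjusted p = 0.920), so changes of up to 1.52-fold at 24H stay within the interval.

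IL15, a cytokine that sustains T and natural killer lymphocytes, had the same order of group means as IL6. Its normalised counts were 82.7, 67.7 and 103.8 in controls, 54.9, 57.1 and 64.5 at 24H and 102, 105 and 99.0 at 48H. The libraries at 24H lay below those of both other groups, and CTRL replicate 3 lay within the range of 48H. Against controls, the level at 24H was 0.696-fold (95% interval 0.540 to 0.897, adjusted p = 0.519) and that at 48H 1.20-fold (0.940 to 1.54, adjusted p = 0.333), and neither passed. The log2 fold change at 48H was 0.27, against 0.13 without CTRL replicate 2 and 0.43 without CTRL replicate 3. Between 24H and 48H, IL15 rose 1.73-fold (1.34 to 2.23, adjusted p = 0.0117). The call was lost without TMAO 48H replicate 2 (adjusted p = 0.0518), and without TMAO 24H replicate 1 and TMAO 48H replicate 3 together (0.0641), with log2 fold changes of 0.77 and 0.77.

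IL32 had the largest rise over controls among the 10 genes at 48H. It had 171, 153 and 189 normalised counts in controls, 180.4, 212 and 199.6 at 24H and 237, 287 and 251 at 48H. All libraries at 48H lay above all others, and those at 24H overlapped the controls at their lower end. The rise at 48H was 1.51-fold (95% interval 1.27 to 1.79, adjusted p = 0.00612), and it passed without each single library (adjusted p 0.00653 to 0.0391) and without both libraries that stood apart (0.0102). At 24H, IL32 was 1.15-fold of controls (0.970 to 1.37, adjusted p = 0.776). From 24H to 48H the fold was 1.31 (1.10 to 1.55), which did not pass (adjusted p = 0.0589), except with ribosomal RNA genes removed (0.0483) and without TMAO 48H replicate 1 (0.0481).

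**Figure D2:**
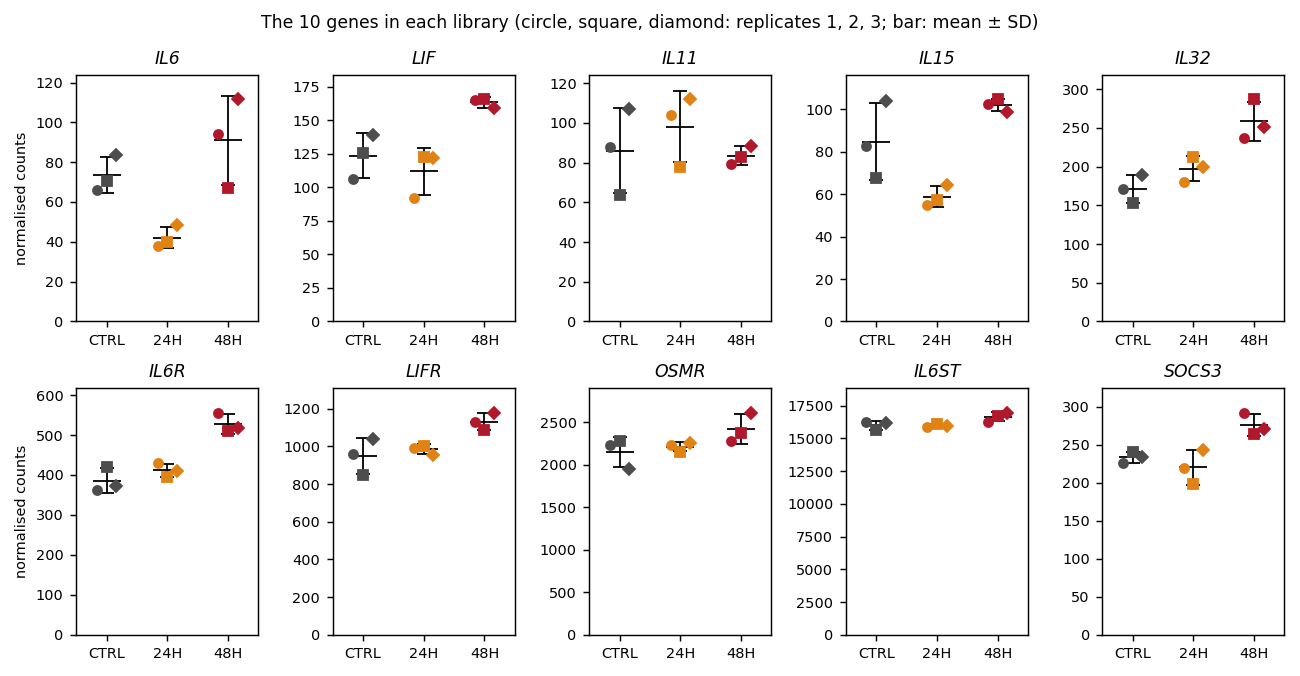
Normalised counts (vertical axes from 0) of the 10 genes in each of the 9 libraries; horizontal bars and whiskers are group means ± SD (n = 3). IL6 and IL15 are lowest at 24H, and for IL32, IL6R, IL6ST, LIF, LIFR and SOCS3 the 3 libraries at 48H lie above the other 6.

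Among the receptor chains, IL6R, which gives a cell its own IL-6 binding site, rose most. It had 363, 421 and 372 normalised counts in controls, 429, 395 and 411 at 24H and 556, 511 and 518 at 48H. The libraries at 48H lay above all others, whereas controls and 24H overlapped. Against controls the rise was 1.37-fold at 48H (95% interval 1.22 to 1.54, adjusted p = 0.00306), just under the 1.4-fold required for a call. It passed without each single library (adjusted p 0.00414 to 0.0170), and without CTRL replicate 2 it reached 0.52 on the log2 scale, above 1.4-fold. At 24H the fold was 1.07 (0.95 to 1.20, adjusted p = 0.873). From 24H to 48H the rise was 1.28-fold (1.14 to 1.44, adjusted p = 0.0126). It was lost without TMAO 24H replicate 2 (adjusted p = 0.0597) or replicate 3 (0.0517), and it held without both libraries that stood apart (0.0382).

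LIFR, the receptor chain for LIF, rose less at 48H. Its normalised counts were 961, 846 and 1037 in controls, 994, 1004 and 955 at 24H and 1127, 1088 and 1179 at 48H. The libraries at 48H lay above all others. The rise over controls was 1.19-fold (95% interval 1.08 to 1.32, adjusted p = 0.0318). It was lost without CTRL replicate 1 (adjusted p = 0.0711) or replicate 2 (0.116) and without TMAO 48H replicate 2 (0.0619) or replicate 3 (0.0768), the library with few epithelial marker counts. At 24H the fold was 1.04 (0.938 to 1.15, adjusted p = 0.935), and at 48H LIFR stood 1.15-fold above 24H (1.04 to 1.27, adjusted p = 0.0980).

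OSMR, which pairs with gp130 for oncostatin M, and IL6ST itself did not pass in any comparison. OSMR had 2231, 2278 and 1952 normalised counts in controls, 2230.5, 2155 and 2255 at 24H and 2276, 2376 and 2615 at 48H. CTRL replicate 2 and TMAO 48H replicate 1 overlapped, and the fold at 48H was 1.12 (95% interval 1.02 to 1.24, adjusted p = 0.104). On the log2 scale this was 0.17, against 0.11 without TMAO 48H replicate 3 (adjusted p = 0.280) and 0.098 without CTRL replicate 3 (0.304). IL6ST had 16254, 15614 and 16159 normalised counts in controls, 15892, 16128 and 15964 at 24H and 16268, 16692 and 16971 at 48H. Its folds against controls were 0.999 at 24H (0.941 to 1.06, adjusted p = 0.996) and 1.04 at 48H (0.980 to 1.10, adjusted p = 0.408), with upper bounds that leave room for a small rise in gp130 transcript.

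SOCS3, the STAT3-induced inhibitor of gp130 signalling, had 226, 239.9 and 234 normalised counts in controls, 219.6, 198 and 244 at 24H and 292, 264 and 270.4 at 48H. The libraries at 48H lay above all others. The fold over controls was 1.18 at 48H (95% interval 1.02 to 1.37, adjusted p = 0.139) and 0.945 at 24H (0.816 to 1.09, adjusted p = 0.928), and between 48H and 24H it was 1.25 (1.08 to 1.45, adjusted p = 0.0661). None of these passed over all genes.

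Counted together, 0 of the 10 genes passed at 24H with edgeR (2 at an unadjusted p under 0.05, IL6 and IL15) and 0 with DESeq2, beside 0.0950% of all 14740 genes tested. IL6 and IL15 were also the genes whose libraries at 24H all lay below the controls, as those of 7.52% of all genes did, with 6.73% lying above. At 48H, 3 of the 10 genes were higher than controls with an adjusted p under 0.05 (IL6R, LIFR and IL32) and 0 lower, beside 5.14% of all genes higher, 5.29% lower and 10.4% in either direction. When a change of 1.4-fold or more was also required, IL32 alone was called, beside 1.80% of all genes in either direction and 0.882% higher. For 6 of the 10 genes all libraries at 48H lay above all controls (IL6R, IL6ST, LIF, LIFR, SOCS3 and IL32), as for 14.7% of all genes, with 13.0% below. The median log2 fold change was 0.26 over the 10 genes and 0.0040 over all genes. Between 48H and 24H, 4 of the 10 genes were higher at 48H (IL6, IL15, IL6R and LIF) and 0 lower, beside 3.77% of all genes higher and 7.53% in either direction. IL6, IL15 and LIF were also at least 1.4-fold higher, beside 1.71% of all genes in either direction, 0.862% higher and 0.848% lower. For 9 of the 10 genes, all but IL11, the libraries at 48H lay above those at 24H, as for 14.7% of all genes, with 12.9% below. Without TMAO 24H replicate 1 and TMAO 48H replicate 3, IL6R alone passed between 48H and 24H, and IL6R and IL32 passed between 48H and controls. The study itself displayed IL6, IL15, LIF, SOCS3, LIFR, IL6R and IL32 for their change in these libraries, so their directions are not independent evidence. The comparisons at 24H and at 48H share their controls.

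**Figure D3:**
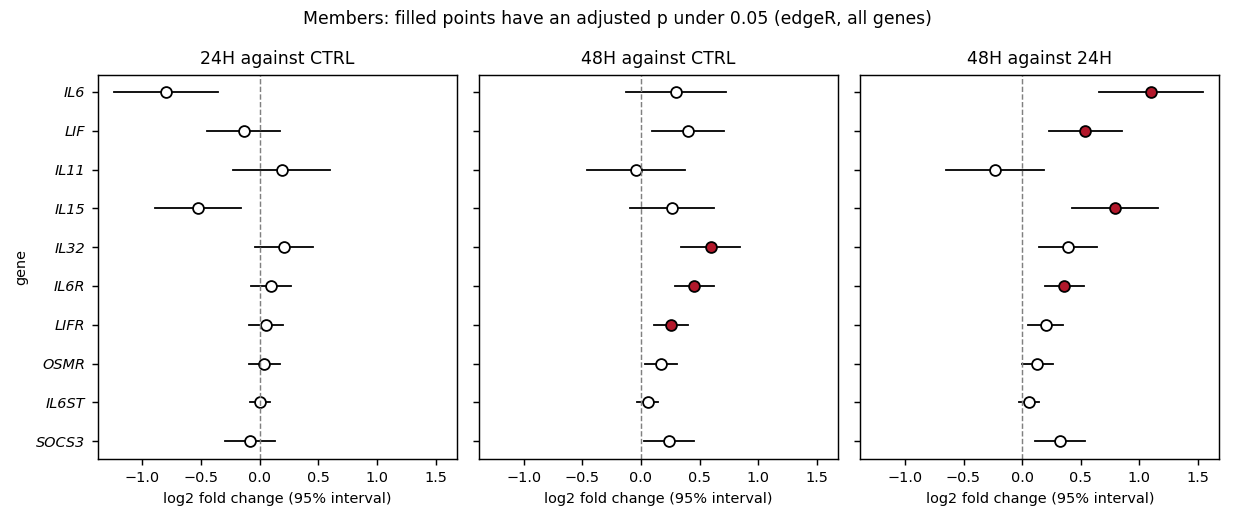
Log2 fold changes of the 10 genes in the 3 comparisons, with 95% intervals from edgeR's quasi-likelihood fit; filled points have an adjusted p under 0.05 over all genes. No point is filled at 24H, IL32, IL6R and LIFR are filled at 48H, and IL6, LIF, IL15 and IL6R are filled for 48H against 24H.

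**Figure D4:**
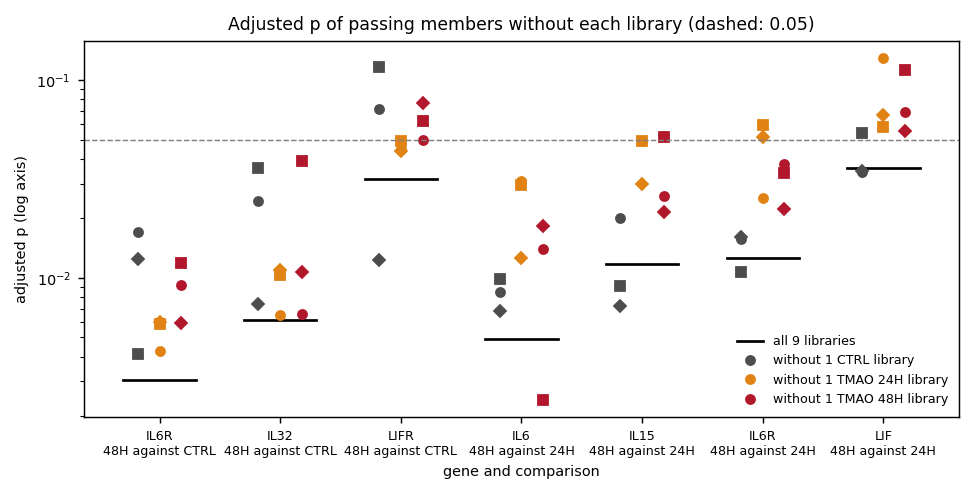
Adjusted p (log axis) of the 7 passing differences with all 9 libraries (black lines) and without each library in turn (circles, squares and diamonds for replicates 1, 2 and 3); the dashed line is at 0.05. The rises of IL6R and IL32 over controls and of IL6 between 24H and 48H stay under the line throughout, whereas most points for LIF lie above it.

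Over the 9 libraries, the genes with profiles most like that of IL6, among 12329 with a mean of at least 50 normalised counts, were EBF4 (Pearson r = 0.981 of log2 CPM), P2RX4 (0.966), SGK1 (0.946), CSPG5 (0.940) and WNT3 (0.936). These values describe 9 libraries that share 3 groups, and the genes were picked as the highest of many.

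The remaining gp130 ligands were sparse. Of 8 other ligand or ligand-partner genes, 4 were tested. IL27 and IL31 had 0 counts in every library, which allows up to 3 counts in each, and OSM, the ligand of OSMR, had at most 1. CLCF1, a cytokine of the family, had a mean of 204 normalised counts in controls and 184 at 48H (adjusted p = 0.538). Of the receptor chains IL11RA, IL27RA, CNTFR and IL31RA, the first 2 were tested and neither passed in any comparison. IL11RA, the chain that IL-11 needs, had a mean of 337 normalised counts in controls and 373 at 48H (adjusted p = 0.320). Of the 3 IL-15 receptor genes tested, 0 passed with edgeR at 24H (0 at an unadjusted p under 0.05), 48H (1) or between them (0).

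Of 10 tested JAK and STAT genes, 0 passed at 24H (1 at an unadjusted p under 0.05). At 48H, JAK2, a kinase bound by gp130, was higher than in controls by 1.21-fold (1.10 to 1.33, adjusted p = 0.0146). STAT3 itself stood at 1.11-fold of controls at 48H (1.03 to 1.19) and did not pass (adjusted p = 0.0682). Among 15 inhibitors of the pathway (SOCS, PIAS and phosphatase genes) 1 passed at 48H and 0 at 24H (0 at an unadjusted p under 0.05). This was PTPN11, which encodes SHP2, a phosphatase that docks on gp130 at the site used by SOCS3, with a 1.16-fold rise (1.10 to 1.24, adjusted p = 0.00450). The proteases ADAM10 and ADAM17, which shed the IL-6 receptor from the cell surface, did not pass in any comparison (0, 0 and 1 at an unadjusted p under 0.05 at 24H, at 48H and between them).

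The list of STAT3 target genes held members that passed in each direction. At 24H, 1 of 16 tested genes was lower and 0 were higher. This was MYC, at 0.795-fold of controls (95% interval 0.732 to 0.864, adjusted p = 0.0493). Without TMAO 24H replicate 2, 0 of all genes passed at 24H. At 48H, MYC (1.17-fold, adjusted p = 0.0192) and the survival gene BCL2L1 (1.11-fold, adjusted p = 0.0295) were higher and TIMP1, a protease inhibitor, was lower (0.857-fold, adjusted p = 0.00437). Between 48H and 24H, MYC (1.48-fold, adjusted p = 3.93e-05), IER3 (1.28-fold, adjusted p = 0.00234) and JUNB (1.16-fold, adjusted p = 0.0316) were higher and TIMP1 (0.855-fold, adjusted p = 0.00378) lower. MYC, IER3 and JUNB are also immediate early genes that respond to many other signals. The median log2 fold change of the list was -0.026 at 24H, 0.048 at 48H and 0.109 between 48H and 24H. Between 48H and 24H, 12 of the 16 genes were higher at 48H (8 at an unadjusted p under 0.05) and 4 lower (2). Of all 14740 genes, 7541 were higher (1715) and 7199 lower (1541). Against controls, 10 of the 16 were lower (5) and 6 higher (0) at 24H, and 9 were higher (3) and 7 lower (2) at 48H. Of all genes, 7397 were lower (659) and 7343 higher (408) at 24H, and 7515 higher (1939) and 7225 lower (1863) at 48H.

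**Figure D5:**
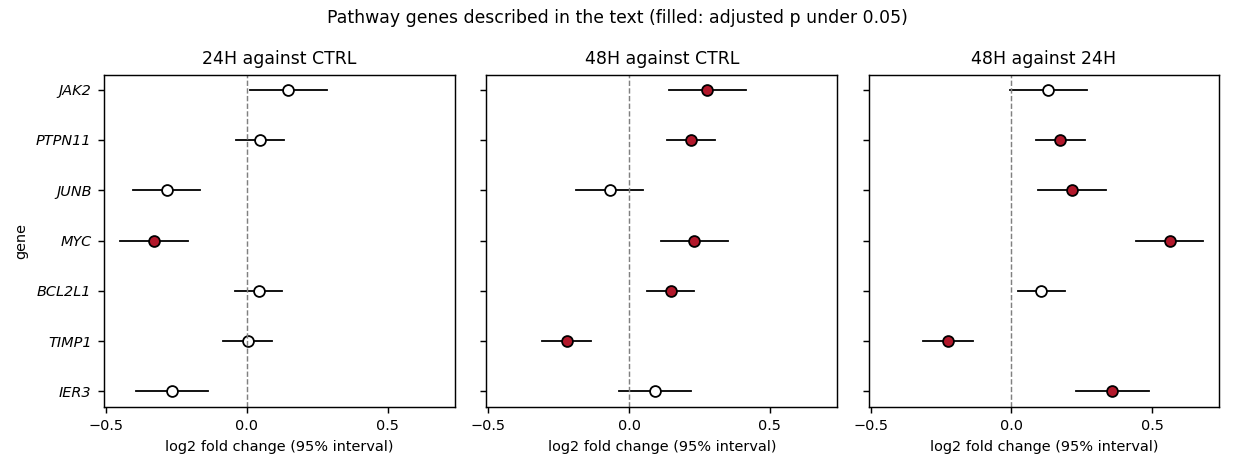
Log2 fold changes with 95% intervals of 7 other genes of the JAK-STAT and STAT3 target lists described in the text; filled points have an adjusted p under 0.05. TIMP1 lies below 0 at 48H, JAK2, PTPN11, MYC and BCL2L1 lie above it, and MYC is the only filled point at 24H.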

How the data were processed

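The authors trimmed reads with Trim Galore, as the submitters' processing notes name it, processed them with nf-core RNAseq, and the deposited values are estimated counts for each gene, not normalised. The quantifier, build, annotation and strand setting are not given in the sources used here. After rounding, 14740 genes were kept by filterByExpr and scaled by TMM, and the quasi-likelihood test of edgeR 4.0.16 (R 4.3.3, legacy = FALSE) took the 9 libraries in a single fit, with Benjamini-Hochberg adjustment over all genes tested. A gene passed with an adjusted p under 0.05 and was called if it also changed by 1.4-fold or more. The 95% intervals use standard errors taken from F values. The smallest p of an exact permutation test with 3 libraries in each group is 0.1.

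Of each list other than the 10 genes, the passing genes were named (at most 6 per list), besides markers and single genes for context: CLCF1, IL11RA, STAT3 and the untested ligands were chosen after their values were seen. Some results for genes of these lists are not reported here. The genes and lists were chosen with earlier results of these data known. In GENCODE release 29, among genes in the table, OSMR shares 229 exon bases with RICTOR, LIFR 629 with LIFR-AS1 and IL6 46 with STEAP1B on the opposite strand. Without strand information such reads cannot be told apart.

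The test was tried on simulated data. Alternatives were DESeq2 1.42.0, RLE factors, other filters (none, or at least 10 counts in every library), a fit of the 2 groups compared, the older quasi-likelihood fit, a replicate block, removal of ribosomal RNA genes, a test against a 1.4-fold change, and leaving out each library. Leaving out TMAO 24H replicate 1 and TMAO 48H replicate 3 together was chosen after seeing the data. RT-qPCR and metabolite measurements were not analysed here. By RT-qPCR, the study reports IL-6 transcript significantly above controls at 48H.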

Additional observations from a re-analysis of the deposited data

Results flagged for a closer look

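For 4 genes the level differed between the TMAO libraries of 48H and of 24H in edgeR. There were no time-matched controls, so TMAO and time in culture cannot be told apart in this difference. The log2 fold changes between them were 1.10 for IL6 (adjusted p = 0.00494), 0.79 for IL15 (0.0117), 0.36 for IL6R (0.0126) and 0.54 for LIF (0.0359), with the 3 libraries at 48H above the 3 at 24H for each. Without TMAO 24H replicate 1, which was rich in ribosomal RNA, and TMAO 48H replicate 3, which had few epithelial marker counts, the values were 0.84, 0.77, 0.40 and 0.44, and IL6R alone passed (adjusted p = 0.0382).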

How the results depend on the processing

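Low depth limits IL6, IL15, IL11 and LIF, with about 34 to 188 counts per library. No other setting than leaving out libraries changed a call among the 10 genes, except for LIFR at 48H (adjusted p = 0.0668 in a fit of 2 groups and 0.0518 with the replicate block), IL32 between 48H and 24H with ribosomal RNA genes removed, and the test against a 1.4-fold change. With that test, 0 of the 10 genes passed at 48H (0 at an unadjusted p under 0.05) and 0 between 48H and 24H (2), and 0 (87), 23 and 50 of all genes at 24H, at 48H and between them. Without both libraries that stood apart, 1 of the 10 genes passed and 0 were called between 48H and 24H (6 at an unadjusted p under 0.05), with 645 of all genes passing. At 24H, 55 of all genes passed and 11 were called with DESeq2, and 22 passed in the fit of 2 groups, which gave 981 at 48H. The replicate block gave 1 passing and 1 called gene at 24H, 948 passing at 48H and 731 between 48H and 24H, against 14, 7, 1537 and 1110 without it. Same-numbered libraries of different groups deviated from their group means with correlations of -0.12 to 0.091 over 9 pairs. For differently numbered libraries the correlations were -0.0996 to 0.159 over 18 pairs. The main fit held no replicate block because the study's methods name none. IL6ST at 24H turned above controls with DESeq2 (0.0017 on the log2 scale), RLE factors (0.0015), ribosomal RNA genes removed (0.0012) and both libraries left out (0.0042). With single libraries left out it ranged from -0.019 to 0.0096, LIFR at 24H from -0.021 to 0.13, OSMR at 24H from -0.024 to 0.082 and IL11 at 48H from -0.22 to 0.14. The cause of these shifts was not tested. In those fits, 0 of the 10 genes passed at 24H, 2 to 3 at 48H (1 to 2 called) and 2 to 4 between 48H and 24H (1 to 3 called). Of all genes, 0 (without TMAO 24H replicate 2) to 24 passed and 0 to 9 were called at 24H, 700 (without TMAO 48H replicate 2) to 1595 passed at 48H and 558 (without TMAO 24H replicate 3) to 1281 between 48H and 24H.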
